A study of Rattus norvegicus with 6 samples.

Results

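The DNA replication machinery, taken as 40 genes, was followed in primary rat Schwann cells, which wrap the axons of peripheral nerves, with and without stimulation by NRG1. The genes code for proteins that license and open origins, copy DNA at the fork, supply nucleotides and pack new DNA into chromatin. They were taken by symbol, a rule that uses no measured value, but the list was chosen with earlier results of these data known. Of the 40 genes, 39 had a row among the 17327 genes counted, and 38 had enough counts to be among the 9740 genes tested. Chaf1a, the large subunit of chromatin assembly factor 1, is not analysed here. Gins1, a subunit of the GINS complex, was counted but not tested, with 9, 4 and 16 counts in the mock samples of cultures 1, 2 and 3 and 9, 22 and 16 in the NRG1 samples.

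The cells came from the sciatic nerves of adult Wistar rats, and confluent cultures were held for 18 h in medium with 2% foetal bovine serum and 10 µM forskolin, a compound that raises cAMP. They then received 10 nM recombinant soluble NRG1β1 (NRG1 samples) or the same volume of the buffer the ligand is dissolved in, PBS with bovine serum albumin (mock samples), for 6 h. Each group held 3 samples, 1 from each of 3 independent cell preparations, here called cultures 1, 2 and 3, so that every culture gave 1 mock and 1 NRG1 sample. Before starvation all cultures had grown in medium with forskolin and a neuregulin, so both groups are cells withdrawn from the ligand, and the mock samples are not cells that never met it. RNA was measured by poly(A) RNA sequencing, and the number of animals behind a culture is not given in the sources used here.

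A cell copies its DNA from origins that are licensed in G1, when ORC, Cdc6 and Cdt1 load the MCM2-7 helicase as an inactive ring. At the start of S phase the ring is activated by Cdc45 and GINS, and polymerases, the Pcna clamp, single-strand binding proteins and ligase copy both strands. Many of these genes are transcribed as cells pass from G1 to S, through E2F factors that the retinoblastoma proteins hold in check until cyclin D and its kinases act, and neuregulin is known as a mitogen for cultured rat Schwann cells.

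The promoters of Cdt1 and of MCM2-7 genes are shown because E2F motifs stand in those of the 2 genes that rose and of others that did not pass the test. Sequences are RefSeq promoter windows of 300 bases (250 before and 50 after the annotated transcription start) on the GRCr8 assembly, whereas the counts were made on rn5, so positions serve only to name the sequence. The 4 forms of the E2F motif searched were TTTCCCGC, TTTGGCGC, TTTGCCGC and TTTCGCGC, on both strands, where matches can overlap each other. CCAAT, the box bound by NF-Y, was searched on both strands as well and can overlap an E2F match. Capitals mark E2F and CCAAT matches on either strand. The 250 bases upstream of the Mcm5 start, on the plus strand at chr19:13488563-13488812, were the following.
Mcm5 upstream: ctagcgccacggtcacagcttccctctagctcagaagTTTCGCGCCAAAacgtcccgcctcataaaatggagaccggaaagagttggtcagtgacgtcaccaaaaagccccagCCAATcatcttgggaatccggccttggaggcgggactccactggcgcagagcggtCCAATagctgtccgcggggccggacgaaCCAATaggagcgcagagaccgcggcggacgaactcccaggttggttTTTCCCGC

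For Cdt1 and the other MCM genes with a window, 30 bases around a match are printed 5′ to 3′ on the strand of the gene. They lie at chr19:67529245-67529274 (Cdt1, plus strand), chr4:122918088-122918117 (Mcm2, minus), chr9:30733734-30733763 (Mcm3, minus), chr13:42404471-42404500 (Mcm6, minus) and chr12:22163212-22163241 (Mcm7, minus).
Cdt1: ccgcgaaaattGCGCGAAAtccgcgggaag
Mcm2: tgacccggtTTTCGCGCGAAAacccgtggc
Mcm3: aaacttccgtgGCGGGAAAacttgggaagt
Mcm6: gcgtctgctTTTGGCGCGAAAttagcgtgt
Mcm7: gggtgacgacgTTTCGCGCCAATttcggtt

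A window was held for 35 of the 40 genes (not for Orc1, Cdc6, Mcm4, Gins4 and Rrm2), and 14 of the 35 contained an E2F match. Of all 27457 windows 618 (2.3%) held one, and of the 7479 windows of genes tested for NRG1 311 (4.2%). CCAAT was in 62.9% of the replication gene windows, against 37.7% of all windows and 37.8% of those of tested genes. Of 34 windows of further replication genes 14 (41.2%) held an E2F match and 35.3% held CCAAT, and of 26 windows of mitosis genes 1 (3.8%) held an E2F match and 73.1% held CCAAT. Of 16 windows of regulators of the passage from G1 to S, 4 (25.0%) held an E2F match and 37.5% held CCAAT. Besides Cdt1 and the 5 MCM genes, a match lay in the windows of Gins1, Gins3, Rfc3, Pola1, Pole, Rpa2, Lig1 and Tyms. Both genes that rose, Mcm5 and Cdt1, were among the 13 tested genes with an E2F match, whose log2 fold changes ran from -0.64 to 1.31 with a median of 0.12. The 20 tested genes with a window and no match had a median of 0.10, from -0.44 to 0.73, and none of them rose. A match describes letters in these windows and not a site in use.

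After 6 h of NRG1, 2 of the 38 replication genes tested had risen (adjusted p not above 0.01), Mcm5, a subunit of the MCM2-7 helicase, and Cdt1, the licensing factor that brings this helicase to origins. No replication gene fell, and for 32 of the 36 that did not pass the 95% interval of the change lay inside 2-fold in either direction. In the same test (edgeR, quasi-likelihood, with the culture as a block, adjusted over all 9740 genes by Benjamini-Hochberg) 6.31% of all genes rose and 5.51% fell. With edgeR p-values both genes also met the thresholds of the study's rule for a regulated gene, which adds an absolute log2 fold change over 1. These thresholds were met by 3.47% of all genes. The study applied its rule to DESeq2 p-values. In a DESeq2 run made here, not the study's own, with the culture as a block, Mcm5 met these thresholds but Cdt1, at an adjusted p of 0.026, did not. Reads from bulk samples cannot tell fewer cells expressing a gene from less RNA per cell.

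Mcm5 had 3.07, 6.07 and 3.47 CPM (a gene's reads as a share of all reads counted on genes in that sample, on the usual counts-per-million scale with TMM factors) in the mock samples of cultures 1, 2 and 3, and 12.4, 10.0 and 8.52 CPM in the NRG1 samples. All NRG1 samples lay above all mock samples, and the largest gap within a pair was that of culture 1. The rise was 2.48-fold, a log2 fold change of 1.31 (95% interval 0.77 to 1.84, edgeR adjusted p = 0.0020). The counts behind it were small, 23, 41 and 44 reads in mock and 93, 89 and 132 in NRG1. The gene still passed when any 1 culture was left out, with a log2 fold change from 1.02 without culture 1 to 1.60 without culture 2, and with DESeq2 and the culture as a block. It overlaps no other gene and has no pseudogene copy in the RefSeq gene table.

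Cdt1 had 2.54, 2.66 and 3.70 CPM in mock and 7.47, 5.84 and 7.36 CPM in NRG1. The groups did not overlap, and the 3 pair ratios were close to each other, at log2 values of 1.48, 1.08 and 0.95. The gene rose 2.28-fold, a log2 fold change of 1.19 (95% interval 0.67 to 1.72, edgeR adjusted p = 0.0033), on 18 to 47 reads in mock and 52 to 114 in NRG1. Without culture 3 its log2 fold change was no smaller, at 1.37, but the edgeR adjusted p was 0.013. With DESeq2 and the block the log2 fold change was 1.23 with an adjusted p of 0.026, so in those 2 fits the call was lost. Gmnn, which codes for the Cdt1 inhibitor geminin, is among the further replication genes described below, none of which passed.

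**Figure D1:**
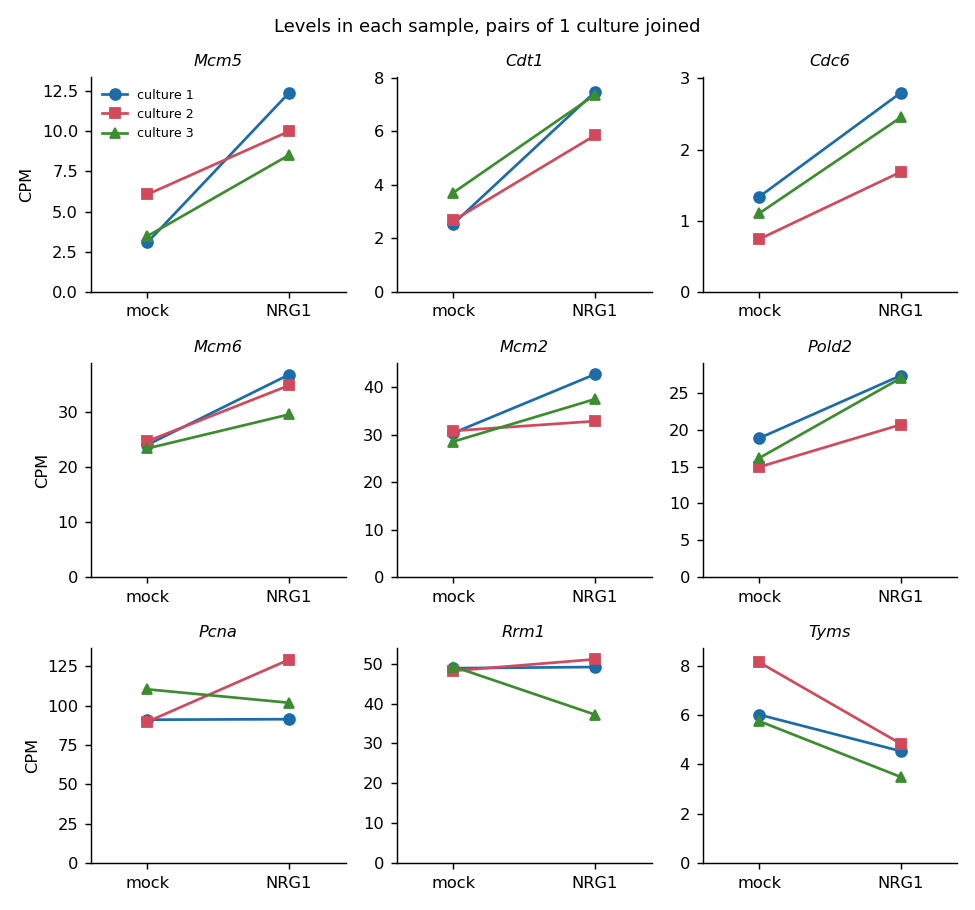
Levels in CPM (vertical axes, each from 0) of 9 replication genes in the mock and NRG1 samples, with a line joining the pair of samples from each of the 3 cultures. For Mcm5, Cdt1, Cdc6, Mcm6, Mcm2 and Pold2 every NRG1 sample lies above every mock sample, for Tyms below, and for Pcna and Rrm1 the groups overlap. The 9 genes are not typical of the list. Of all 38 tested genes, the groups did not overlap for 7 with NRG1 higher and 1 with NRG1 lower, beside 10.2% and 9.94% of all genes.

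Among the other origin licensing genes, Cdc6, the ATPase that works with Cdt1 in loading the helicase, was the one with a fold change of like size. Its levels, shown after its values were seen, were 1.34, 0.740 and 1.10 CPM in mock and 2.80, 1.69 and 2.45 CPM in NRG1. The groups did not overlap and every pair ratio was close to 1 on the log2 scale, but the samples held as few as 5 reads and at most 38. Its log2 fold change of 1.12 had a 95% interval of 0.37 to 1.87 and an edgeR adjusted p of 0.033, which missed the threshold. Orc1 and Orc6, subunits of the origin recognition complex, stood at 0.08 (interval -0.52 to 0.67) and 0.08 (-0.47 to 0.63).

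The 6 subunits of the MCM2-7 ring are present once each in the helicase, and all 6 had a positive log2 fold change, with a median of 0.23. Mcm6 came next to Mcm5, at 24.1, 24.7 and 23.4 CPM in mock and 36.8, 34.8 and 29.6 CPM in NRG1. Its groups did not overlap, and its log2 fold change was 0.48 (interval 0.19 to 0.77, edgeR adjusted p = 0.021). Mcm2 was at 0.33 (0.04 to 0.62, adjusted p = 0.094, edgeR), also with no overlap. Mcm3, Mcm4 and Mcm7 were at 0.09, 0.10 and 0.13, and their intervals reached no higher than 0.46. Mcm7 was, for example, at 49.7, 50.02 and 58.8 CPM in mock and 61.7, 52.7 and 59.4 CPM in NRG1, with groups that overlapped. The interval of Mcm5 began at 0.773, above the upper end for every other subunit, of which the highest was 0.768 for Mcm6. Differences between genes were not tested.

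Of the genes that activate the helicase, none passed. Gins2, a GINS subunit, was at 18.2, 18.0 and 24.1 CPM in mock and 22.3, 24.7 and 35.8 CPM in NRG1. Every NRG1 sample was above the mock sample of its own culture, although the groups overlapped, with a log2 fold change of 0.45 (interval 0.14 to 0.75, edgeR adjusted p = 0.035). Its gene overlaps Gse1 in the annotation of GRCr8, whereas the counts were made on rn5. Alignments in more than 1 gene were not counted on genes, and the counting is not stated to use strand. Whether Gins2 lost reads in this way or gained reads of Gse1 cannot be told. The complex holds 1 copy of each subunit, and the 2 others tested had negative values, Gins3 at -0.31 (-0.91 to 0.29) and Gins4 at -0.47 (-0.85 to -0.09, adjusted p = 0.071, edgeR). Mcm10, which helps to turn the loaded helicase on, was at 0.73 with a wide interval of 0.02 to 1.43 on 9 to 35 reads a sample, and Cdc45 was at 0.15 (-0.55 to 0.85).

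Pcna, the sliding clamp and a common marker of cycling cells, was at 91.1, 89.8 and 110.5 CPM in mock and 91.5, 129.4 and 101.9 CPM in NRG1. Culture 2 was higher with NRG1 and culture 3 lower, and the log2 fold change of 0.13 had an interval of -0.16 to 0.43 (edgeR adjusted p = 0.51). The 5 subunits of replication factor C, which loads the clamp, ranged from -0.18 (Rfc1, its large subunit) to 0.25 (Rfc5), with Rfc2 at 0.02, Rfc3 at -0.09 and Rfc4 at 0.16. All 6 intervals of the clamp and its loader lay inside a 2-fold change. Pcna has 3 annotated pseudogene copies and Rfc4 and Rfc5 have 2 each. Copies are annotated for 12 of the 40 genes, the others being Mcm2, Mcm4, Mcm7, Gins4, Rpa1, Rrm1, Rrm2, Tk1 and Dut. Reads of these genes that are shared with a copy may be missing from their counts, since alignments that were not unique were not counted on genes.

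Among the polymerases, Pold2 and Pold1, subunits of DNA polymerase delta, which extends the lagging strand, had the highest values of the group. Pold2, an accessory subunit, was at 18.8, 14.9 and 16.2 CPM in mock and 27.3, 20.7 and 27.0 CPM in NRG1. The groups did not overlap, and the log2 fold change of 0.59 (interval 0.27 to 0.91) had an edgeR adjusted p of 0.0105, just above the threshold of 0.01. It passed with RLE size factors (0.0087), with no low-count filter (0.0041), with at least 10 counts in every sample (0.0099) and without culture 2 (0.0096), all edgeR adjusted p-values. It did not pass with library size alone (0.0115), without culture 1 (0.028), without culture 3 (0.12) or with no block (0.27, all edgeR), nor with DESeq2 and the block (adjusted p = 0.046). Pold1, the catalytic subunit, was at 0.48 (0.12 to 0.84, edgeR adjusted p = 0.054). Pold3 and Pold4, also subunits of polymerase delta, are among the further replication genes described below. Their values were negative, at -0.15 (-0.52 to 0.22) and -0.30 (-0.65 to 0.04). Polymerase alpha and primase, which start each new strand, were close to or below 0, with Pola1 at 0.0029, Pola2 at -0.05, Prim1 at -0.32 and Prim2 at -0.32, and Pole, the catalytic subunit of the leading strand polymerase epsilon, was at 0.12.

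Rpa2 and Rpa1, subunits of replication protein A, which coats single-stranded DNA, had fold changes of opposite sign. The small subunit, Rpa3, is among the further replication genes described below and was at -0.61. Rpa2 was at 27.0, 31.7 and 35.3 CPM in mock and 34.7, 47.8 and 42.5 CPM in NRG1, higher with NRG1 in each culture but with overlapping groups. Its log2 fold change was 0.40 (interval 0.12 to 0.69, edgeR adjusted p = 0.040), whereas that of Rpa1 was -0.44 (-0.78 to -0.10, adjusted p = 0.060) and was negative in each culture. Fen1, the flap endonuclease, and Lig1, the ligase, which finish Okazaki fragments, were at -0.13 (-0.51 to 0.26) and 0.09 (-0.45 to 0.62). Fen1 overlaps Tmem258 and Lig1 overlaps Zswim9 in the annotation.

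In nucleotide supply, Rrm1, the large subunit of ribonucleotide reductase, was at 48.9, 48.2 and 49.3 CPM in mock and 49.2, 51.1 and 37.2 CPM in NRG1. Cultures 1 and 2 hardly differed within their pair and culture 3 was lower with NRG1, giving a log2 fold change of -0.11 (interval -0.40 to 0.18). Tyms, thymidylate synthase, had the lowest fold change of all 38 genes, at 6.01, 8.14 and 5.75 CPM in mock and 4.53, 4.83 and 3.49 CPM in NRG1. Its NRG1 samples all lay below its mock samples, but its log2 fold change of -0.64 (-1.13 to -0.15) had an edgeR adjusted p of 0.057. Tk1, thymidine kinase, was far from 0 in culture 1 alone, with pair ratios of 1.22, -0.07 and 0.01 on the log2 scale. Rrm2, the small reductase subunit, had 4 to 14 reads a sample, and its interval of -1.03 to 1.25 allowed a 2-fold change in either direction. Rrm2 overlaps Cys1 in the annotation. Dut, which removes dUTP, was at 0.04, and Chaf1b, the middle subunit of chromatin assembly factor 1, at 0.12 (-0.54 to 0.78).

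**Figure D2:**
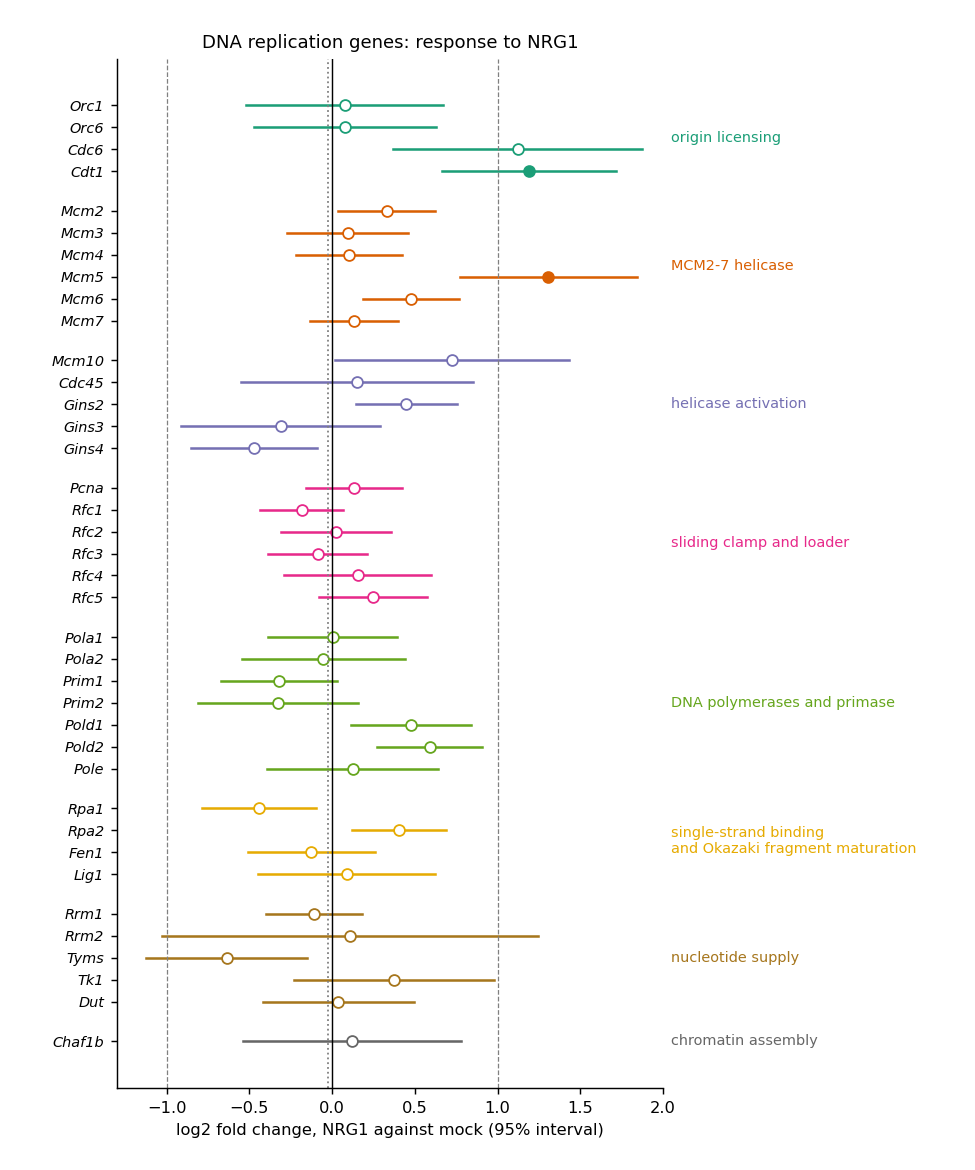
Log2 fold change of NRG1 against mock (horizontal axis) with its 95% interval for the 38 tested replication genes, grouped by role, where filled points passed the edgeR test, dashed lines mark a 2-fold change and the dotted line the median of all genes (-0.03). Only Cdt1 and Mcm5 are filled, and 32 of the other 36 intervals lie between the dashed lines.

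Across the 38 genes the log2 fold change had a median of 0.10, against -0.03 over all 9740 genes tested, with 27 positive and 11 negative values. By role the median was 0.60 in origin licensing, 0.23 in the MCM2-7 helicase, 0.15 in helicase activation, 0.08 in the clamp and its loader, 0.00 in polymerases and primase, -0.02 in single-strand binding and Okazaki fragment maturation and 0.04 in nucleotide supply. The licensing median is the middle of 4 values, 0.08, 0.08, 1.12 and 1.19, and no gene lay near it. Orc2, Orc3, Orc4 and Orc5, placed among the further replication genes, were at 0.13, -0.36, -0.02 and -0.12. Differences between roles were not tested. The medians of the pair ratios were 0.24, 0.15 and -0.02 in cultures 1, 2 and 3. Summed over 39 genes, the CPM was higher with NRG1 by 11.1% in culture 1, 13.2% in culture 2 and 0.561% in culture 3. The groups did not overlap for 7 genes with NRG1 higher and 1 with NRG1 lower, beside 10.2% and 9.94% of all genes.

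With the threshold at 0.05 in place of 0.01 (edgeR adjusted p), 7 genes rose (Cdc6, Cdt1, Gins2, Mcm5, Mcm6, Pold2 and Rpa2) and 0 fell, where 11.5% of all genes rose and 11.7% fell. At an unadjusted p under 0.05, 10 had a positive and 3 a negative fold change (17.0% and 18.7% of all genes), and DESeq2 with the block called 1 of 37 up, Mcm5, and 0 down. Of the 36 genes that did not pass, 25 had an interval that included 0. For 32 the interval lay inside a 2-fold change in either direction, and for 13 inside a 1.5-fold change. The intervals of Cdc6, Mcm10, Rrm2 and Tyms reached past 2-fold. Precision followed depth, with a median standard error of 0.25 on the log2 scale for the 18 genes under 10 CPM and 0.15 for the 20 at 10 CPM or more.

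Other genes around the replication machinery were described in the same test. Of 36 further replication genes, among them ORC subunits, the kinase Cdc7, Gmnn and small polymerase subunits, 0 rose and 0 fell with edgeR and with DESeq2, and at an unadjusted p under 0.05 edgeR gave 3 in each direction. Their median was -0.08. The smallest adjusted p-values were those of Dctd, dCMP deaminase, at a log2 fold change of 0.67 (edgeR adjusted p = 0.031), Rpa3, the small subunit of replication protein A, at -0.61 (0.034), and Chtf8, part of an alternative clamp loader, at 0.35 (0.050).

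Of 22 regulators of the passage from G1 to S, 3 rose and 3 fell. Ccnd1, cyclin D1, had 347, 421 and 686 CPM in mock and 1050, 1104 and 1559 CPM in NRG1. All NRG1 samples lay above all mock samples, and its log2 fold change was 1.39 (interval 1.10 to 1.68, edgeR adjusted p = 1.2e-05). Tfdp1, a partner that E2F factors need to bind DNA, rose by 0.57 and Cdk4, the kinase of cyclin D, by 0.53. Tfdp2, another such partner, fell by 1.26, Rb1, the retinoblastoma protein, fell by 0.71 and its relative Rbl2 fell by 0.48. Without culture 1, and likewise without culture 3, 1 of these regulators rose in place of 3, and 2 fell.

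The E2F genes that were tested did not pass, and E2f2, E2f5 and E2f8 had no row under these symbols. E2f1 was at 9.62, 8.29 and 7.25 CPM in mock and 7.999, 5.84 and 5.94 CPM in NRG1, a log2 fold change of -0.35 (interval -0.78 to 0.09). E2f3 was at 0.25, E2f4, mostly a repressor, at 0.38 (edgeR adjusted p = 0.043) and E2f6 at 0.25, while E2f7 had too few counts to test. Cyclins D2 and D3 (Ccnd2, Ccnd3) were at 0.05 and 0.16. The cyclin E genes, which act at the start of S phase and are E2F targets like many replication genes, were at 0.04 (Ccne1, -0.52 to 0.60) and -0.11 (Ccne2, -0.47 to 0.26).

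Of 28 mitosis genes, 0 rose and 0 fell with edgeR and with DESeq2. At an unadjusted p under 0.05 edgeR gave 0 with a positive and 3 with a negative fold change. The fold change was negative for 24 of the 28 and positive for 4, with a median of -0.13 and a highest value of 0.06. The smallest adjusted p-values were those of Nusap1, a spindle protein, at -0.89 (edgeR adjusted p = 0.033), Prc1, which bundles microtubules of the midzone, at -0.41 (0.095) and Nuf2, a kinetochore subunit, at -0.51 (0.13). Of 24 genes of nucleolar ribosome biogenesis 22 rose, with a median of 1.03. The study had picked 11 genes of this list on these same samples as up with NRG1, so the count is not independent evidence of its direction. They were led in adjusted p by Fbl (1.56, edgeR adjusted p = 1.0e-05), the methyltransferase fibrillarin, Wdr46 (1.25, 2.0e-05) and Bop1 (1.26, 2.1e-05).

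**Figure D3:**
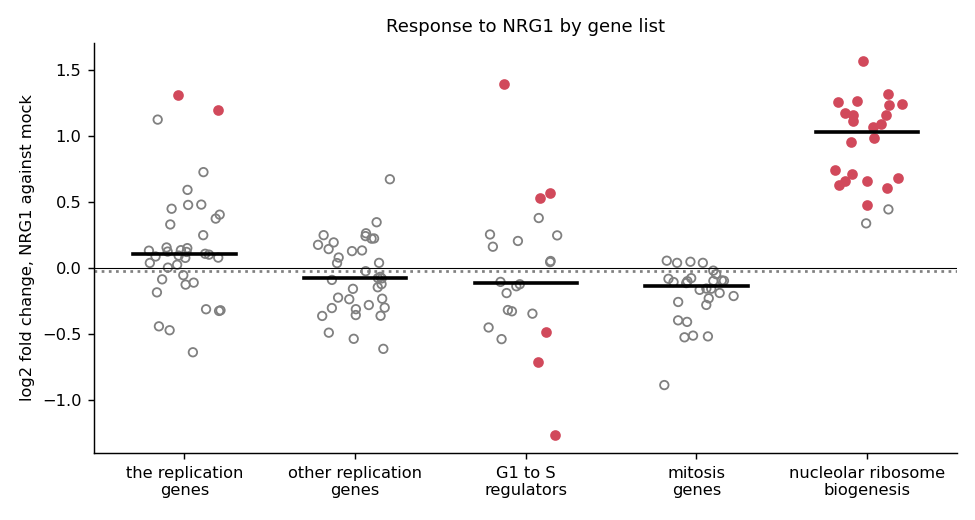
Log2 fold change of NRG1 against mock (vertical axis) for each tested gene of 5 lists, with filled red points for genes that passed the edgeR test, black bars for the list medians and a dotted line for the median of all genes. The replication genes (median 0.10, 2 of 38 filled) and further replication genes (median -0.08, 0 of 36) spread to both sides of 0, 24 of the 28 mitosis genes lie below 0 with 0 filled, the G1 to S regulators have 6 of 22 filled and the nucleolar genes 22 of 24.

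Of the 38 replication genes, 1 differed between the 3 cultures. The test of the culture terms jointly, in the same edgeR fit and with the same threshold, called 23.4% of all genes. This was Rfc3, a clamp loader subunit, at 16.6, 37.9 and 49.5 CPM in the mock samples of cultures 1, 2 and 3 and 17.2, 39.8 and 39.5 CPM in the NRG1 samples. Its edgeR adjusted p was 5.1e-05. It was low in both samples of culture 1, and without that culture 0 replication genes were called. Without culture 2, 3 were called, Gins2, Mcm4 and Rfc3. The log2 level moved between the highest and the lowest culture by a median of 0.40 over the replication genes and 0.45 over all genes.

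For the mitosis genes the median span was 1.27, and 19 of 28 were called between cultures. For 26 of the 28 the highest culture was culture 2, where the summed CPM was 392 in mock and 376 in NRG1, against 195.5 and 173 in culture 1 and 205.7 and 175.7 in culture 3. The replication genes, summed, were at 648, 658 and 690.3 CPM in the mock samples of cultures 1, 2 and 3. DESeq2 called 12 of the 28 mitosis genes, and leaving out culture 2 left 3 of them called. A test of whether the replication and mitosis lists differed from each other between cultures was not run.

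**Figure D4:**
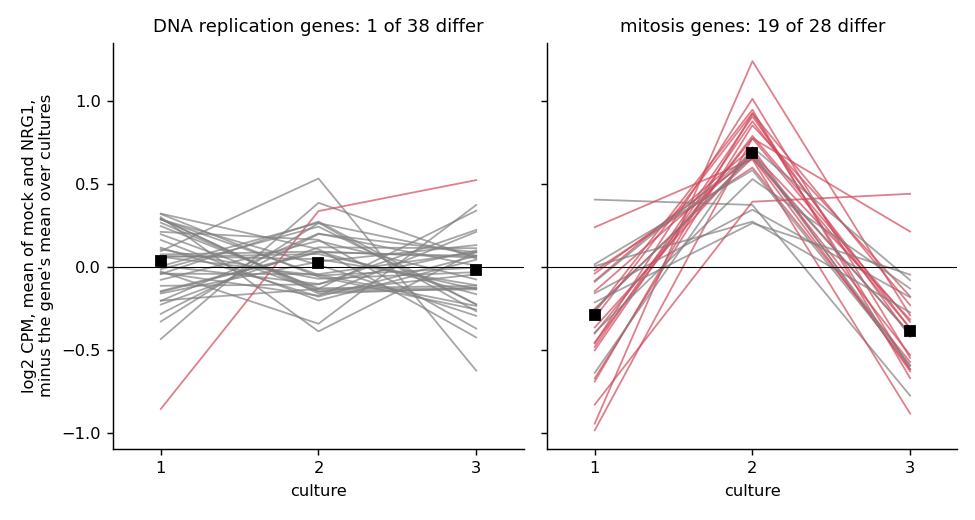
Mean log2 CPM of the mock and NRG1 samples of each culture, less the gene's mean over the cultures (vertical axis), for each replication gene (left) and mitosis gene (right), with red lines for genes that differed between cultures in the edgeR test and black squares for the list medians. Of the replication genes only Rfc3 is red, and 26 of the 28 mitosis genes peak in culture 2.

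Culture 1 stood apart in its cell markers. The 10 Schwann cell markers, of which Gap43 alone was too low to test, summed to between 5497 and 7436 CPM in culture 1. In the others they summed to between 14017 and 19391 CPM. With NRG1, 4 of the 9 tested fell, beside 5.51% of all genes, and the sum differed within cultures 1, 2 and 3 by -26.1%, -27.7% and -19.9%. The list holds Pmp22, which the study had picked on these same samples as down with NRG1. The 9 fibroblast markers summed to 3.60 and 4.66 times as much in culture 1 as in cultures 2 and 3, with Dcn, Lum and Thy1 at 0 in cultures 2 and 3 but Col1a1 high throughout. Summed fibroblast markers ran from 15309.5 to 71278.4 CPM in mock and from 15545.4 to 72357.7 CPM in NRG1, and within culture they differed by 1.51%, -34.3% and 1.54%. Perineurial and mural markers were 6.86 and 7.44 times as high in culture 1, with Rgs5 at 0 in the other cultures. Macrophage markers reached at most 10.7 CPM in sum, with Ptprc and Adgre1 at 0 in all samples, and endothelial markers at most 15.4 CPM, with Pecam1, Cdh5 and Emcn at 0. Without culture 1 the same 2 replication genes passed, Mcm5 at a log2 fold change of 1.02 (edgeR adjusted p = 0.0040) and Cdt1 at 1.05 (0.0096), and the median over the replication genes was 0.05. The part of other cell types in the levels of Rfc3 and in the median was not tested.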

How the data were processed

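Gene counts of 6 samples (3 mock, 3 NRG1) were used. They were made by the authors, who aligned reads to rn5 by TopHat 2.0.10, ran htseq on the RefSeq transcriptome and deposited raw counts. Whether counting used strand is not given in the sources used here. Counts on genes ran from 6821590 to 15475018 per sample (47.0% to 49.9% of alignments). Over these totals, without TMM factors, 3 counts correspond to 0.19 to 0.44 CPM. Summary lines for alignments outside genes (22.9% to 26.1%), in more than 1 gene (0.12% to 0.17%) or not unique (24.5% to 29.9%) were kept out of library sizes and tests.

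Counts were tested with edgeR 4.0.16 in R 4.3.3 (quasi-likelihood, TMM, filterByExpr with a minimum count of 10, 9740 genes left and 7587 removed). The replicate number was a block, after the study's paired design, and p-values were adjusted by Benjamini-Hochberg over all genes tested. The study itself used DESeq2, here (1.42.0) an alternative. "Rose" and "fell" mean adjusted p not above 0.01. Standard errors are the log2 fold change over the square root of F, and pair ratios use log2 CPM with a prior count of 2. Numbers pair samples of 1 cell preparation. Deviations from the group means correlated across genes at 0.91, 0.67 and 0.81 for the same number and at -0.80 to 0.51 for different numbers.

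The 40 genes and the related lists were chosen with earlier results of these data known. Values per sample are given for each gene that passed and for the non-passing gene with the highest mean CPM in its role (up to 6: Mcm7, Gins2, Pcna, Pold2, Rpa2 and Rrm1). In related lists the 3 smallest adjusted p-values were named, with E2F, cyclin D and cyclin E genes. Values of Cdc6, Mcm6, Tyms and Rfc3 by sample, and the G1 to S genes that passed beyond those 3, were added after they were seen. Scripts were tested on simulated data. Alternatives were no block, DESeq2, RLE or no scaling factors, other count filters, leaving out each culture, and a threshold of 0.05. Chaf1a and a comparison of MCM protein sequences are not analysed here.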

Additional observations from a re-analysis of the deposited data

How the results depend on the processing

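The replicate number was kept as a block because a number stands for 1 cell preparation. With no replicate block, edgeR called 0 replication genes up (smallest adjusted p 0.18) and 0 of all 9740 genes (smallest 0.14), while 5 replication genes and 1334 of all genes had an unadjusted p under 0.05. Cdt1 then had a log2 fold change of 1.20 and Mcm5 of 1.30. The count of replication genes that rose, 2, became 1 with DESeq2 and the block, 7 with an adjusted p of 0.05, and 1 to 3 when cultures were left out in turn, with 1 without culture 3. DESeq2 without the block, an alternative chosen after seeing the data, gave 0, with adjusted p-values of 0.052 for Cdt1 and 0.039 for Mcm5. RLE size factors, no low-count filter and at least 10 counts in every sample each gave 3, Pold2 joining the same 2 genes, and library size alone gave 2. The count of genes regulated by the study's rule, 2, became 0 with no replicate block, 1 with DESeq2 and the block, 0 with DESeq2 and no block, and 1 to 2 with a culture left out. The count that fell was 0 in each of these fits. The count that differed between cultures, 1, became 3 with no low-count filter and 3 at an adjusted p of 0.05, and ran from 0 to 3 with a culture left out. For mitosis genes that count, 19, became 12 with DESeq2 and ran from 3 (without culture 2) to 20 with a culture left out. Its other values lay between 19 and 25, the highest at an adjusted p of 0.05. The median log2 fold change of the replication genes, 0.10, ran from 0.05 to 0.16 with a culture left out. The cause of these shifts was not tested.

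The sign of 15 of the log2 fold changes that had not passed turned when a culture was left out. The lowest and highest values were -0.17 and 0.53 for Orc6, -0.059 and 0.31 for Mcm3, -0.098 and 0.54 for Cdc45, -0.055 and 0.29 for Pcna, -0.022 and 0.14 for Rfc2, -0.18 and 0.084 for Rfc3, -0.030 and 0.081 for Pola1 and -0.14 and 0.018 for Pola2. They were -0.098 and 0.41 for Pole, -0.22 and 0.097 for Fen1, -0.097 and 0.30 for Lig1, -0.21 and 0.069 for Rrm1, -0.59 and 0.76 for Rrm2, -0.022 and 0.64 for Tk1 and -0.033 and 0.11 for Dut. Pola1, at 0.0029, also became -0.0034 with library size alone, -0.0097 with no low-count filter and -0.0017 with at least 10 counts in every sample. Rrm2 had no value without culture 2, where it did not pass the filter. Depth limited the 18 genes under 10 CPM, whose median standard error was 0.25 on the log2 scale.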
